A study of Mus musculus with 12 samples.

Results

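The 8 genes C1qtnf9, Gcnt3, Sh3rf2, Sypl2, Ren1, Aox3, Spink1 and Lrrn2 serve restricted tissues such as kidney, liver, gut, pancreas, muscle or brain, and were followed here in mouse embryonic stem (ES) cells. They were picked from the 47643 genes of the deposited count table as genes near 0 in wild-type cells and raised in Dicer-deficient cells, so their levels, ratios and calls in contrasts with KO, 41585 or WT are given as a description, and no test is read from them. Of the 8, 7 had that pattern. Spink1 did not: it was near 0 in KO and 41585 as well, and its highest levels were in SOM and in 1 library each of 41589 and 41584.

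The cells were E14 ES cells of the 129/Ola background, grown with serum at 15% and LIF at 100 U/mL on 0.2% gelatin, and poly(A) RNA of 2 libraries per group was sequenced. The groups were a Dicer knockout (KO), 41585, which the labels describe as processing neither miRNA nor siRNA, SOM, 41589 (labelled as without siRNA processing), 41584 (labelled as similar to WT) and WT. Puromycin at 1 µg/mL was present in all of them, and the labels speak of complemented Dicer lines beside the KO and WT cells. What the names SOM, 41589, 41585 and 41584 stand for, how the knockout was made, what promoter drove any returned Dicer and whether a line is 1 clone are not stated in the labels. Nor is it stated whether both libraries of a group were separate cultures, so the spread behind each p-value may be technical.

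Dicer is the RNase that cuts hairpin precursors into miRNAs and long double-stranded RNA into siRNAs. A miRNA guides an Argonaute protein to messenger RNAs, mostly through pairing of its seed, the bases next to its 5′ end, with a site in the 3′ untranslated region (3′ UTR), and the messenger is then repressed. ES cells without Dicer keep dividing and lack mature miRNAs. A gene can rise in such cells because its own messenger is no longer repressed or through other genes, and levels of messenger RNA alone do not separate these.

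The libraries held between 5348401 and 10428509 counted reads, so that 1 read was worth 0.0913 to 0.188 CPM (counts per 1000000 reads, after TMM scaling of the library totals). Dicer1 had 28.5 and 44.0 CPM in KO and 29.1 and 39.2 CPM in 41585, against 105 and 215 in SOM, 40.2 and 27.8 in 41589, 42.3 and 55.0 in 41584 and 198 and 214 in WT. The 7 markers of pluripotent cells summed to between 5653 and 7339 CPM in every library. None was called changed in KO against WT by edgeR (median log2 fold −0.34), but the sum hides single genes. Pou5f1 had 509 and 465 CPM in KO and 140 and 322 CPM in WT (log2 fold 1.07 ± 0.44, edgeR adjusted p = 0.1195). It was called with no filter on low counts and with only these 2 groups in the fit. In 41585 against 41584 (1.29 ± 0.44, edgeR adjusted p = 0.0684) it was called with DESeq2, with no filter and with the replicate block. Both SOM libraries and replicate 2 of 41589 and of 41584 stood apart from the rest on the second principal component of log2 CPM, with scores of 39.6 to 51.1, against −53.8 to 3.59 in the other 8 libraries. Replicate 1 of 41589 correlated with replicate 2 of WT at r = 0.98, and replicate 1 of 41584 at r = 0.98. Replicates 1 and 2 of 41589 and of 41584 therefore differ from each other, and values of these groups are given per library.

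C1qtnf9 encodes a secreted protein of the C1q/TNF family, related to adiponectin and made mainly by fat, and lies on chromosome 14 from 60768134 to 60780869. It had 30.1 and 20.3 CPM in KO and 20.5 and 25.6 CPM in 41585. SOM held 0.514 and 0.939 CPM, 41589 held 0.321 and 1.10, 41584 held 0 and 0.466, and WT held 0.155 and 0.109, which is 1 read in each WT library. KO and 41585 libraries were the 4 highest by a wide margin. The ratio was 201 for KO against WT (95% counting interval 55.3 to 1668) and 109 for 41585 against 41584 (37.0 to 530). In a bulk library, more cells with the RNA and more RNA per cell cannot be told apart.

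Ren1 encodes renin, the protease that opens the renin-angiotensin cascade by cleaving angiotensinogen and that is known from juxtaglomerular cells of the kidney. The gene lies on chromosome 1 from 133350510 to 133360325. It had 8.66 and 8.93 CPM in KO and 14.5 and 12.6 CPM in 41585, against 0.171 and 0.376 in SOM, 0.535 and 0.274 in 41589, 0 and 0 in 41584 and 0 and 0.109 in WT. No library outside KO and 41585 passed 5 reads. The ratio of KO to WT was 137, with a counting interval of 24.2 to 5453, and 41585 was at least 64.6-fold higher than 41584, taking 3 reads over the 2 libraries of 41584. Mice of 129 strains carry an additional renin gene, Ren2, which is not counted separately here, so which copy the Ren1 reads came from is uncertain.

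The 300 bases around the transcription start of these genes (250 before it and 50 after it, RefSeq, GRCm38.p6) are shown because the promoters of the 5 genes with a usable window differ widely in CpG content, with CpG dinucleotides and any TATAAA in capitals. C1qtnf9 and Ren1 stand at the poor end.
C1qtnf9, chr14:60767884-60768183, plus strand: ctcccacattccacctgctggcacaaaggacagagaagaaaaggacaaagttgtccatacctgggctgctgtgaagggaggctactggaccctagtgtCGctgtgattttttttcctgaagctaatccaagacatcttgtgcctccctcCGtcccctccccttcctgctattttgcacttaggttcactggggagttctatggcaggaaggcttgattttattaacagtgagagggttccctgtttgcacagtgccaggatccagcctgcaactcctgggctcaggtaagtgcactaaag
Ren1, chr1:133350424-133350723, plus strand: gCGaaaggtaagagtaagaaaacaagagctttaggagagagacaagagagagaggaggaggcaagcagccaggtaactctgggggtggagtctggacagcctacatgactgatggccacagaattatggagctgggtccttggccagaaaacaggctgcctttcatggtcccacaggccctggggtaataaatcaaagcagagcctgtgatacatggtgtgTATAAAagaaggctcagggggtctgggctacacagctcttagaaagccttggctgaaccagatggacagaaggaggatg
C1qtnf9 held 2 CpGs in this window, with an observed-to-expected ratio of 0.103, and 13.7% of 32817 such windows had a lower ratio. Ren1 held 1 CpG, with a ratio of 0.0551 and 6.71% of windows lower, and a TATAAA that starts 29 bases before the start site. Windows with TATAAA on either strand made up 13.6% of all.

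Gcnt3 encodes a glycosyltransferase that branches mucin-type O-glycans and is known from mucus-secreting epithelia (chromosome 9, 70031496 to 70038088). It had 23.1 and 13.7 CPM in KO and 14.5 and 6.69 CPM in 41585. In SOM it stood at 0.686 and 1.88 CPM, in 41589 at 0.962 and 1.28, in 41584 at 0.511 and 1.24, and in WT at 0.155 and 0.109. All 6 libraries of SOM, 41589 and 41584 lay above both WT libraries and below every KO and 41585 library. The ratio of KO to WT was 148 (counting interval 40.5 to 1225), and that of 41585 to 41584 was 12.8 (7.15 to 25.3), where the denominator of 12 reads is larger.

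Aox3 encodes an aldehyde oxidase, a molybdo-flavoenzyme known from mouse liver, and lies on chromosome 1 (58113130 to 58200698) within a cluster of related genes. KO held 12.2 and 7.08 CPM and 41585 held 12.1 and 21.7 CPM, against 0.514 and 0.376 in SOM, 0.321 and 0.365 in 41589, 0 and 0.155 in 41584 and 0 and 0.109 in WT. The 8 libraries outside KO and 41585 had at most 4 reads each. The ratio was 155 for KO against WT (27.4 to 6167) and 238 for 41585 against 41584 (42.3 to 9418), both over 1 read.

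Sypl2, also called mitsugumin 29, encodes a membrane protein of the synaptophysin family that is known from the triad junction of skeletal muscle (chromosome 3, 108211472 to 108226648, minus strand). It had 17.6 and 8.16 CPM in KO and 9.01 and 17.2 CPM in 41585. SOM held 1.37 and 1.503 CPM, 41589 held 0.321 and 0.457, 41584 held 0.256 and 0.933, and WT held 0 and 0.219. SOM was the highest of the other groups and its 2 libraries lay close together. Ratios were 105 for KO against WT (28.6 to 870) and 23.0 for 41585 against 41584 (11.5 to 54.1).

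The Sypl2 window is printed as the CpG-rich end of the range, with CpGs in capitals.
Sypl2, chr3:108226550-108226849, minus strand: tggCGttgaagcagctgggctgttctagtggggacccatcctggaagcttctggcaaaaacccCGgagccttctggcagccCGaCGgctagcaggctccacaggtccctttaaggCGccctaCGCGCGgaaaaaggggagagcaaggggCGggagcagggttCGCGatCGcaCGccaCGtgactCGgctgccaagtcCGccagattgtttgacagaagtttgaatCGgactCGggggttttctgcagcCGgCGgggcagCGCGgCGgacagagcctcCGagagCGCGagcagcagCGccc
It held 27 CpGs against a median of 7 over all windows, and its observed-to-expected ratio of 0.87 was above that of 84.9% of them. Aox3 (10 CpGs, 0.464) and Lrrn2 (16 CpGs, 0.544) lay between, above 55.8 and 60.8% of windows, and the median ratio of all windows was 0.383. The motifs TGANTCA and TGACGTCA, searched on both strands, were in none of the 5 windows and in 7.81 and 1.79% of all windows. The table held windows for 5 of the 8 genes that could be used here, and those of Gcnt3, Sh3rf2 and Spink1 were not analysed.

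Lrrn2 encodes a leucine-rich repeat membrane protein known from neurons (chromosome 1, 132880273 to 132940005). It had 7.20 and 4.62 CPM in KO and 15.2 and 20.7 CPM in 41585, against 0 and 0.109 in WT. The 3 other groups were split. SOM held 3.09 and 5.82 CPM, 41589 held 0.428 and 8.13, and 41584 held 0.895 and 4.97, so that 3 of these 6 libraries lay above the lower KO library. Within 41589 and 41584, replicate 2 was high and replicate 1 low, and the 4 high libraries are those that stood apart on the second principal component. The ratio was 94.5 for KO against WT (16.5 to 3775) and 6.52 for 41585 against 41584 (4.66 to 9.35). Against replicate 1 of 41584 alone the fitted log2 fold was 4.30 and against replicate 2 alone 1.85.

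Sh3rf2 encodes a RING-type ubiquitin ligase and scaffold of the SH3RF family, which is tied to JNK signalling, and lies on chromosome 18 from 42053667 to 42158960. It had 14.2 and 15.2 CPM in KO and 19.7 and 16.7 CPM in 41585. The other groups were at the level of a few reads: 0.171 and 0.188 CPM in SOM, 0.428 and 0 in 41589, 0.256 and 0.155 in 41584 and 0.309 and 0 in WT. Sh3rf2 was the gene whose 6 SOM, 41589 and 41584 libraries lay closest to WT, with 1 of 6 above the higher WT library. The ratio was 114 for KO against WT (31.2 to 949) and 86.8 for 41585 against 41584 (29.4 to 423).

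Spink1 encodes a Kazal-type inhibitor of trypsin, known from pancreatic acinar cells (chromosome 18, 43728082 to 43737557, minus strand). It had 0.366 and 0.154 CPM in KO and 0 and 0.129 CPM in 41585, which is 4 and 1 reads over the groups. SOM held 10.6 and 15.8 CPM, 41589 held 1.71 and 10.9, 41584 held 0.639 and 22.9, and WT held 0.155 and 1.31. The 4 libraries above 10 CPM are the same that stood apart on the second principal component, and no KO or 41585 library was among them. KO stood at 0.327 times WT, with a counting interval of 0.0776 to 1.06 that includes 1. The ratio of 41585 to 41584 was 0.00575 (0.000145 to 0.0325), and it rests on replicate 2 of 41584, which held 147 of the group's 152 reads. The name given to these genes, raised without miRNAs, does not describe Spink1 in these libraries.

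**Figure D1:**
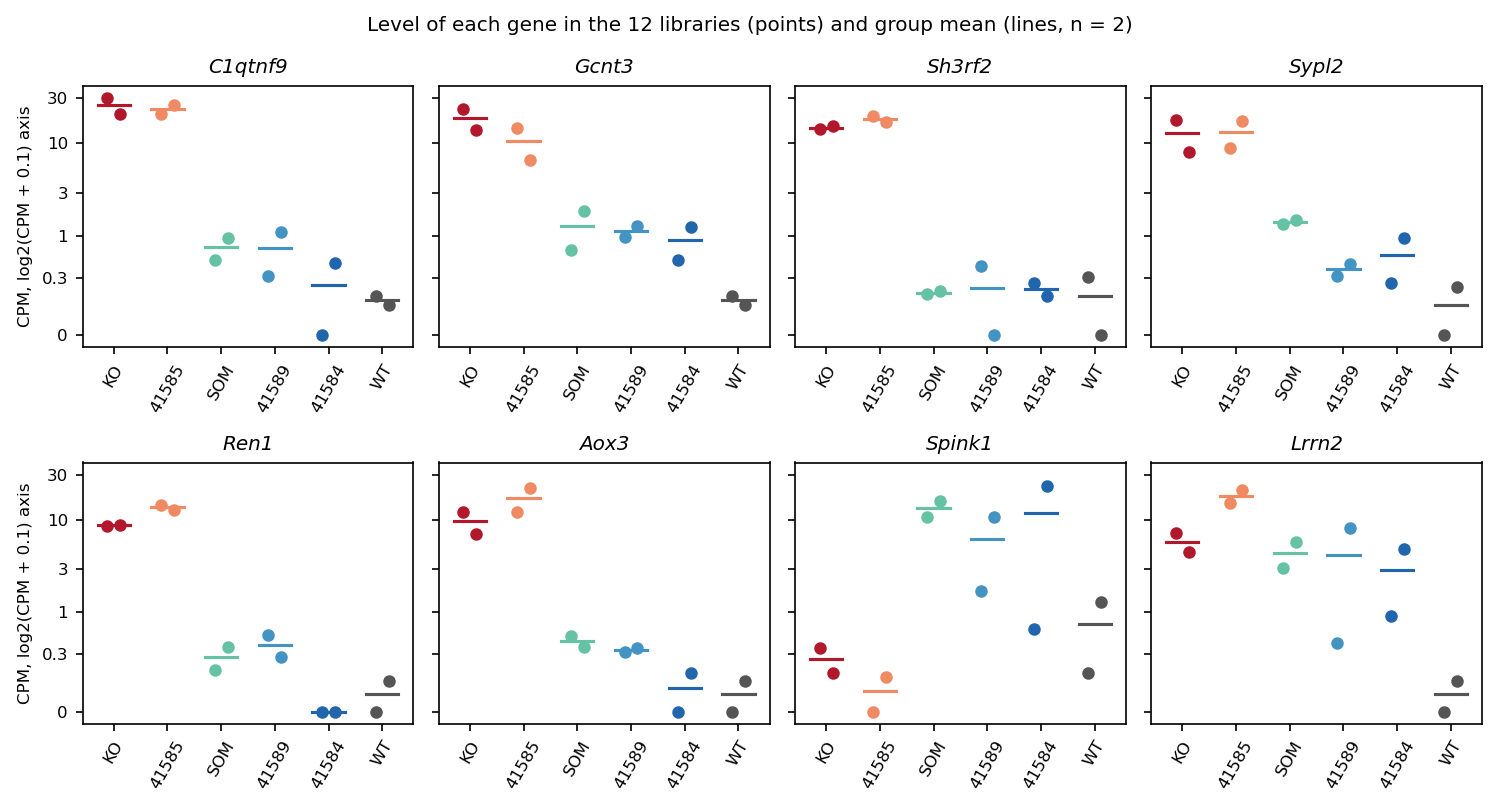
Level of each of the 8 genes in CPM in the 12 libraries, on a log2(CPM + 0.1) axis, with points for libraries and lines for group means (n = 2). The KO and 41585 libraries lie at 4.62 CPM or above for 7 genes, and for Spink1 they lie at 0.366 CPM or below.

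**Figure D2:**
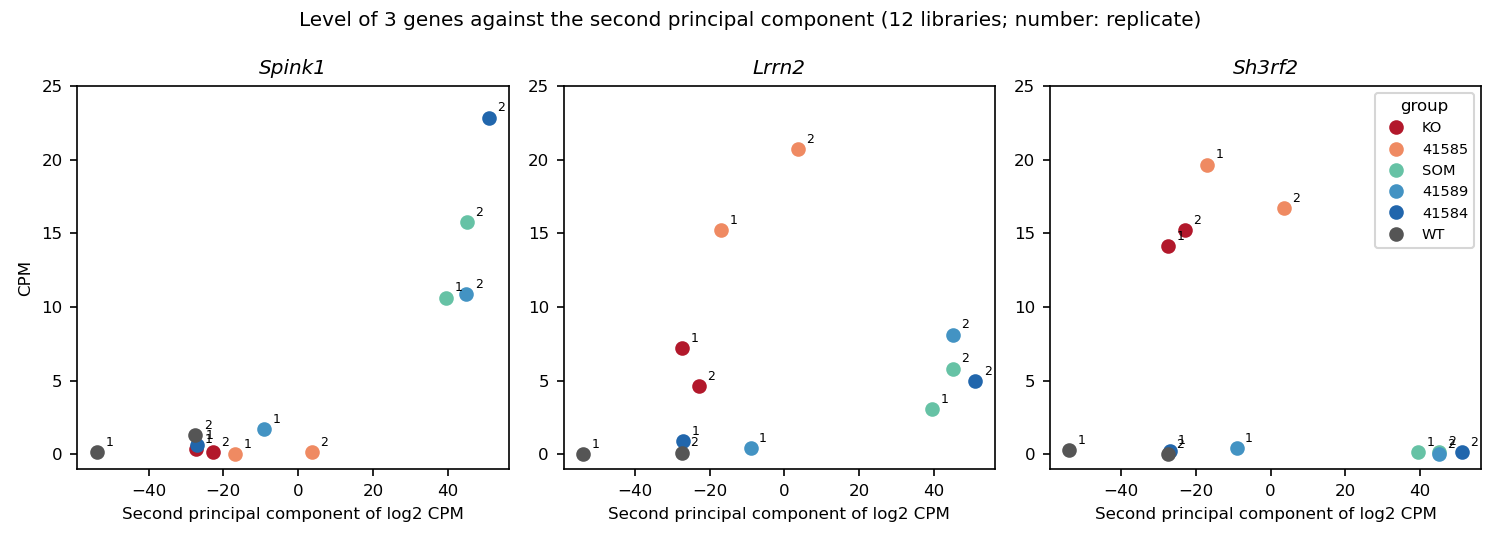
CPM of Spink1, Lrrn2 and Sh3rf2 (y axis) against the score of each library on the second principal component of log2 CPM (x axis), with the replicate number beside each point. Spink1 passes 10 CPM in the 4 libraries with scores of 39.6 to 51.1 alone, Lrrn2 is high there and in KO and 41585, and Sh3rf2 is high in KO and 41585.

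Set against exon length, so that genes can be compared, C1qtnf9 was the highest of the 8 in KO with 13.3 ± 3.64 CPM per kilobase of exon (SD, n = 2). Ren1 followed with 5.31 ± 0.115 and Gcnt3 with 4.27 ± 1.54, whose libraries overlap. Sypl2 (2.94 ± 1.52) overlapped both Gcnt3 and Sh3rf2 (2.61 ± 0.137). Lrrn2 (1.64 ± 0.507) overlapped Aox3 (1.37 ± 0.514) and also Sypl2, while Spink1 was last with 0.357 ± 0.206. In 41585 the order was C1qtnf9 (12.1 ± 1.90), Ren1 (8.18 ± 0.812), Lrrn2 (4.996 ± 1.08), Sh3rf2 (3.23 ± 0.368), Sypl2 (2.998 ± 1.33), Gcnt3 (2.46 ± 1.29), Aox3 (2.402 ± 0.974) and Spink1 (0.0882 ± 0.125). The first 3 of these did not overlap each other, and Sh3rf2, Sypl2, Gcnt3 and Aox3 overlapped. Lrrn2 thus stood in sixth place in KO and in the third in 41585.

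Calls are Benjamini-Hochberg adjusted p-values under 0.05 from edgeR's quasi-likelihood test over all 14629 genes that passed the filter on low counts, which all 8 genes did. In KO against WT, 7 of the 8 were called higher and none lower, where 7.29% of all genes were called higher and 5.9% lower. In 41585 against WT the counts were 7 and 0, beside 16.3 and 12.9% of all genes. In 41585 against 41584, 6 were called higher and 1, Spink1, lower, beside 7.65 and 5.07%, and Lrrn2 was not called. These contrasts contain groups by which the genes were chosen, so nothing is read from their counts. Lrrn2 was no longer called in KO against WT when replicate 1 of KO or either WT library was left out, nor in 41585 against WT when replicate 1 of WT was, which left 6 called. Spink1 was no longer called lower in 41585 against 41584 when replicate 2 of 41584 or either 41585 library was left out.

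**Figure D3:**
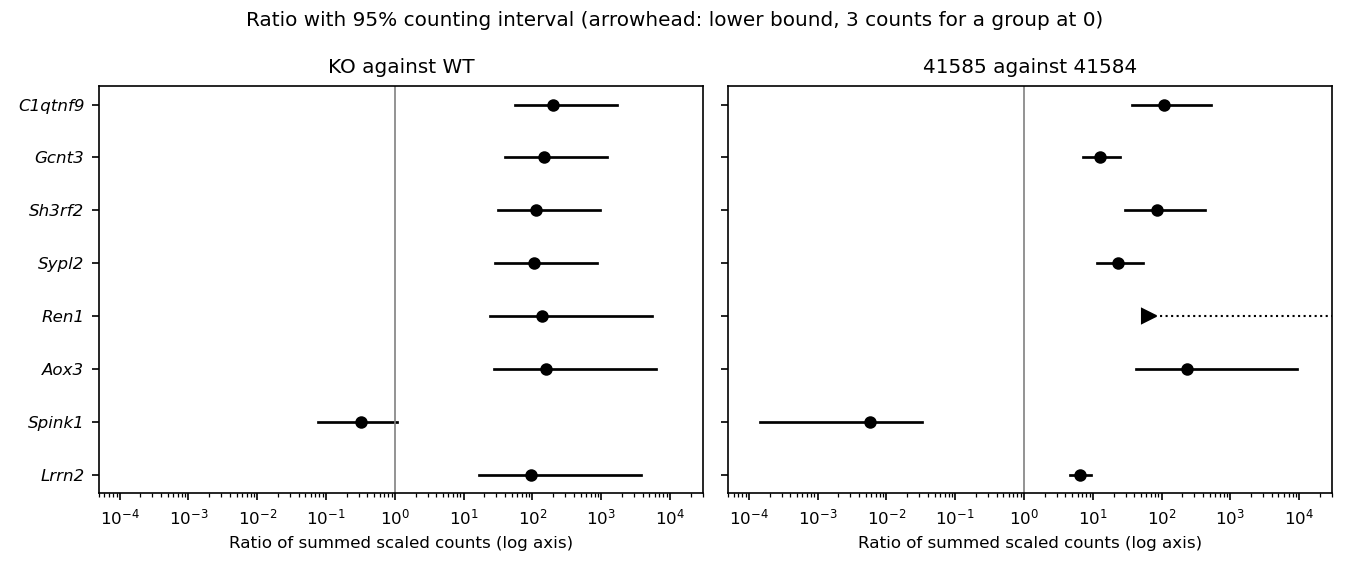
Ratio of summed scaled counts (log axis) with its 95% counting interval for each gene, in KO against WT on the left and 41585 against 41584 on the right; the arrowhead for Ren1 is the lower bound of 64.6. The intervals of 7 genes lie above 1 in both panels, and Spink1 lies below 1 in the panel on the right.

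Between 41585 and KO, none of the 8 was called and 0% of all genes were called higher or lower by edgeR, while 995 genes had an unadjusted p under 0.05 and DESeq2 called 1 gene. Lrrn2 had 17.96 ± 3.89 CPM in 41585 and 5.91 ± 1.82 CPM in KO (SD, n = 2), and Ren1 had 13.6 ± 1.35 and 8.80 ± 0.19 CPM. The libraries of these genes did not overlap, nor did those of Sh3rf2 with 18.2 ± 2.07 CPM in 41585 and 14.7 ± 0.773 CPM in KO. Spink1, with 1 read in 41585 and 4 in KO, did not overlap in the lower direction. Of all tested genes, 29.6% did not overlap and were higher in 41585, and 28.2% did not overlap and were lower. Gcnt3 had 10.6 ± 5.53 CPM in 41585 and 18.4 ± 6.61 CPM in KO, and C1qtnf9 had 23.0 ± 3.62 and 25.2 ± 6.93 CPM, and both overlapped.

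SOM, 41589 and 41584 are not named in the rule that chose the genes. With only the 2 groups compared in the fit, 2 of the 8 genes, Spink1 and Lrrn2, passed the filter on low counts in 41589 against 41584 and in SOM against 41584. The other 6 were tested because they are high in KO and 41585, and at their few reads here the lack of a call says little. In 41589 against 41584 no gene of the 8 was called, beside 0% of all genes higher and 0% lower by edgeR; 103 genes had an unadjusted p under 0.05 and DESeq2 called 0. Ren1 had the smallest p of the 8, with 8 reads in 41589 and 0 in 41584, at least 1.87-fold higher taking 3 reads over both 41584 libraries (edgeR adjusted p = 0.9998, unadjusted 0.00584). C1qtnf9 had 15 reads in 41589 and 3 in 41584, a ratio of 3.51 with a counting interval of 0.993 to 18.9. Spink1 had 6.29 ± 6.48 CPM in 41589 and 11.8 ± 15.7 CPM in 41584 (log2 fold −0.88 ± 1.08), and Lrrn2 had 4.28 ± 5.45 and 2.94 ± 2.89 CPM (0.58 ± 0.94), where the SDs reflect the split between replicates 1 and 2.

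In SOM against 41584 again no gene of the 8 was called, beside 0% of all genes in either direction; 361 genes had an unadjusted p under 0.05 and DESeq2 called 2. C1qtnf9, Sypl2, Ren1 and Aox3, 4 of the 8, were higher in both SOM libraries than in both 41584 libraries. C1qtnf9 had 8 reads in SOM and 3 in 41584, Sypl2 had 16 and 8, and Ren1 had 3 and 0. Of all tested genes, 13% were higher without overlap and 12.4% lower. These 4 genes were tested only because of their levels in groups outside this comparison. That share is therefore no fair background for them, and no excess in SOM is read from their number. Sypl2 had 1.44 ± 0.0932 CPM in SOM and 0.594 ± 0.479 CPM in 41584, a log2 fold of 1.3 ± 0.8 (adjusted p = 0.976). Aox3 had 5 reads in SOM and 1 in 41584, with a ratio of 6.39 and an interval of 0.715 to 302. At these read numbers a difference of a few reads was not detectable.

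The nearest protein-coding genes show how far each locus moved. Ren1 and its neighbour Etnk2, an ethanolamine kinase gene that begins 3.25 kb downstream on the same strand, were both higher. Etnk2 had 17.2 and 14.9 CPM in KO and 23.6 and 25.1 CPM in 41585, against 3.94 and 4.51 in SOM, 4.06 and 6.76 in 41589, 4.35 and 5.44 in 41584 and 1.24 and 3.72 in WT. The KO and 41585 libraries did not overlap the others. It rose in KO against WT by a log2 fold of 2.65 ± 0.48 (edgeR adjusted p = 0.00559), which did not pass with replicate 1 of KO (0.0526) or of WT (0.0667) left out, and in 41585 against 41584 by 2.31 ± 0.46 (adjusted p = 0.01), lost without replicate 1 of 41585 (0.0518). Gm28040, on the other side of Ren1, had 0 reads in every library.

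C1qtnf9 begins 3.58 kb after Spata13, a guanine nucleotide exchange factor gene on the same strand. Spata13 was active in every line, with 56.0 and 44.5 CPM in KO and 46.9 and 66.8 CPM in 41585, against 26.2 and 26.0 in 41584 and 23.2 and 28.1 in WT. Its log2 fold was 0.97 ± 0.27 in KO against WT (edgeR adjusted p = 0.0341) and 1.12 ± 0.27 in 41585 against 41584 (0.0207). Mipep, 3.70 kb beyond the other end of C1qtnf9, had 28.2 and 28.5 CPM in KO and 63.9 and 47.8 CPM in WT (log2 fold −0.98 ± 0.30, edgeR adjusted p = 0.0478), so the neighbours on the 2 sides moved in opposite directions. Atxn7l2, a gene of the ATXN7 family that starts 0.538 kb beyond the 3′ end of Sypl2 on the same strand, had 8.90 and 11.1 CPM in KO and 2.63 and 4.38 CPM in WT, with a log2 fold of 1.49 ± 0.44 (edgeR adjusted p = 0.0415). Its fold in 41585 against 41584 was 1.78 ± 0.43 (0.0219). The calls of Spata13, Mipep in KO and Atxn7l2 were lost when any one of the 4 libraries compared was left out, with adjusted p up to 0.269, 0.303 and 0.285 in KO against WT and, for Spata13 and Atxn7l2, up to 0.167 and 0.123 in 41585 against 41584.

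Aox1 and Aox4, which flank Aox3 at 6.72 and 9.70 kb and encode related oxidases, were not called in either contrast. Aox1 had 3.78 and 2.93 CPM in KO and 1.08 and 1.31 CPM in WT, and Aox4 had 6.59 and 2.93 CPM in KO and 2.01 and 1.20 CPM in WT. The sequences of this cluster are related, and the handling of shared reads is not stated in the labels. Next to Gcnt3, Gtf2a2 was lower in 41585 against 41584 (log2 fold −0.88 ± 0.25, edgeR adjusted p = 0.0381, lost without replicate 1 or 2 of 41585, 0.131 and 0.169, or replicate 2 of 41584, 0.112). Fam81a, Psma5, Nfasc, Mdm4 and Jakmip2 were not called by edgeR in KO against WT or in 41585 against 41584, and Grxcr2, Plac8l1 and Scgb3a2 were too low to test. Mdm4, next to Lrrn2, just missed in 41585 against 41584 (log2 fold −0.99 ± 0.31, edgeR adjusted p = 0.055). It was called lower there with DESeq2 (0.0153), with the replicate block (0.0491) and with no filter. Mipepos, an annotated antisense gene (60776329 to 60784581) that overlaps the 3′ part of C1qtnf9 and runs past its end, had at most 3 reads in a library.

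**Figure D4:**
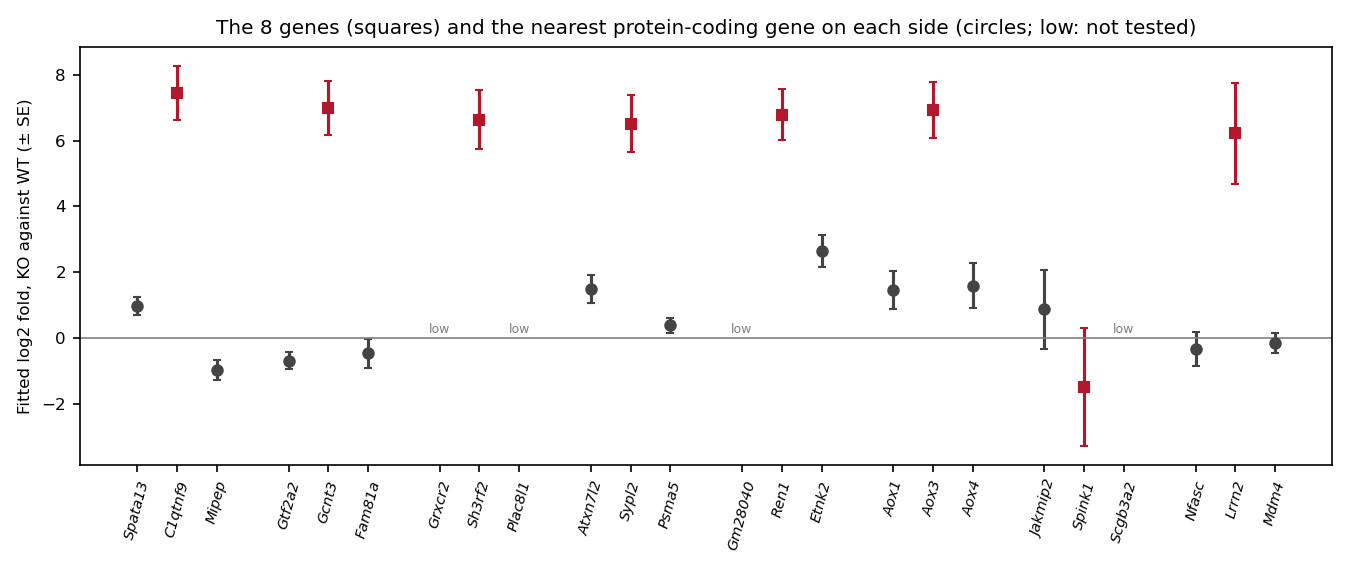
Fitted log2 fold in KO against WT (y axis) for the 8 genes (squares) and the nearest protein-coding gene on each side (circles). Genes are in genome order within each locus. Bars are standard errors derived from the test's F statistic. The squares rest on 1 to 13 reads in WT, so their height and bars depend on the fit. Etnk2 is the neighbour farthest from 0, with 2.65.

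Other genes of each pathway were taken from lists that leave out the 8 genes themselves. Of 12 genes for C1q/TNF-related proteins and adiponectin receptors, 5 passed the filter, 2 were called higher and none lower in KO against WT (median log2 fold 0.11, all genes 0), and the same numbers held in 41585 against 41584 (0.50, all genes −0.01). Adipor1, an adiponectin receptor, had 111 and 103 CPM in KO and 37.9 and 38.5 CPM in WT (log2 fold 1.49 ± 0.23, edgeR adjusted p = 0.00235, kept without each library in turn). The other was Cdh13, a cadherin that binds adiponectin, with 4.76 and 5.08 CPM in KO and 0.309 and 0.328 CPM in WT (3.88 ± 1.11, 0.0379, lost without any one library). Both also passed, narrowly, in 41585 against 41584 (edgeR adjusted p = 0.0495 and 0.0496), and each held in 1 of the 4 fits that left out a library. Adipoq itself had at most 0.366 CPM.

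Among 12 further genes of the renin-angiotensin system, 5 were tested, and in KO against WT none was called higher and 1 lower (median log2 fold −0.88). That one was Agtr1a, the angiotensin receptor, with 0.122 and 0.154 CPM in KO and 1.24 and 2.08 CPM in WT, and its call was lost without any one of the 4 libraries. None was called in 41585 against 41584 (median −0.87). Agt, the angiotensinogen gene whose product renin cleaves, had at most 1 read in a library. Ace, the converting enzyme gene, had 3.42 and 4.003 CPM in KO and 4.79 and 5.80 CPM in WT.

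Of 15 genes for O-glycan cores and branches, 10 were tested, and 1 was called higher and 1 lower in both contrasts (medians 0.04 and −0.13). Gcnt1, which encodes a branching enzyme related to Gcnt3, was the lower one, with 11.95 and 15.6 CPM in KO and 47.2 and 40.8 CPM in WT (log2 fold −1.68 ± 0.41, edgeR adjusted p = 0.0209). In 41585 it had 7.25 and 4.76 CPM, against 51.8 and 27.2 CPM in 41584 (−2.71 ± 0.43, 0.00337). Gcnt3 and Gcnt1 thus stood on opposite sides in both. Galnt7, which encodes an enzyme that adds GalNAc, was higher, with 101 and 105 CPM in KO and 41.0 and 32.2 CPM in WT (1.49 ± 0.27, 0.00566), and with 73.0 and 89.5 CPM in 41585 and 23.4 and 20.2 CPM in 41584 (1.90 ± 0.28, 0.00207). Both calls were kept without each library in turn in 41585 against 41584; in KO against WT that of Gcnt1 was lost without any one (adjusted p up to 0.193) and that of Galnt7 without replicate 1 of KO (0.0511) or replicate 2 of WT (0.0556).

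The list of molybdo-flavoenzymes and molybdenum cofactor genes had 12 genes in the table and 9 tested. Of these, 1 was called higher and none lower in KO against WT (median 0.79), and 2 were higher and 1 lower in 41585 against 41584 (median 0.50). Mocos, the sulfurase that activates the cofactor of aldehyde oxidases, had 19.9 and 14.6 CPM in KO and 3.09 and 5.14 CPM in WT (log2 fold 2.05 ± 0.48, edgeR adjusted p = 0.0172, lost without any one library, up to 0.169). It had 19.1 and 16.1 CPM in 41585 and 2.94 and 1.09 CPM in 41584 (3.09 ± 0.51, 0.00402, kept without each library in turn). In 41585 against 41584, Marc2 was the other higher gene (1.41 ± 0.35, edgeR adjusted p = 0.0235, up to 0.133 with a library left out) and Mocs2, of cofactor synthesis, the lower one (−1.32 ± 0.31, 0.0182, up to 0.114).

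For Sypl2, 9 of 12 genes of the synaptophysin family and the triad junction were tested. In KO against WT none was called higher and 2 lower (median −0.51), Synpr of the same family and the junctophilin gene Jph1, both calls lost without any one library. Casq2 of the same list stood above 0 in KO against WT, with 3.90 and 6.47 CPM in KO and 0.773 and 0.547 CPM in WT. It was not called by edgeR (log2 fold 2.96 ± 1.02, adjusted p = 0.0723). It was called higher with DESeq2 (0.0237), with the replicate block (0.0154), with no filter and with only these 2 groups in the fit. None of the 9 was called by edgeR in 41585 against 41584 (median −0.37). For Sh3rf2, 12 of 13 genes of the SH3RF family and the JNK module were tested and none was called in either contrast (medians −0.09 and −0.05).

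For Lrrn2, 5 of 13 genes of the LRRN family and related synaptic proteins were tested, with 1 called higher and 1 lower in each contrast (medians 1.49 and 0.84). Lrrn4 was the higher one, with 19.9 and 15.6 CPM in KO and 3.25 and 4.92 CPM in WT (log2 fold 2.10 ± 0.38, edgeR adjusted p = 0.00559), lost without replicate 1 of KO (0.0739) or of WT (0.083). Its fold in 41585 against 41584 was 1.65 ± 0.38 (edgeR adjusted p = 0.0169, up to 0.128 with a library left out). Lrrn1 was lower in KO against WT (−4.04 ± 1.17, 0.0402, lost without any one library) and Flrt3 in 41585 against 41584 (−2.34 ± 0.55, 0.0198, lost without replicate 2 of 41585, 0.127, or replicate 1 of 41584, 0.0685). For Spink1, 5 of 18 genes for Kazal inhibitors and the acinar pancreas were tested. Spink10 was called higher in KO against WT, with 25.5 and 23.1 CPM in KO and 4.18 and 6.89 CPM in WT (2.12 ± 0.64, 0.0459, lost without any one library). In 41585 against 41584 none was called by edgeR, and Spink10 just missed (2.04 ± 0.63, edgeR adjusted p = 0.0503). It was called there with DESeq2, with no filter and with the replicate block. The medians were −0.44 and −0.13, and the acinar genes Prss1, Prss2 and Ctrb1 are among the 13 too low to test.

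Markers of cell types were summed per library, and no list for kidney was used. The sums for adipocytes, hepatocytes and intestinal epithelium were low, and those for striated muscle and neurons were not. The 6 adipocyte markers summed to between 0.257 and 1.29 CPM in KO and 41585 libraries and to between 0 and 0.328 CPM in WT, with Lep and Plin1 at 0 in KO and 41585. Adipoq had 3 and 1 reads in KO, 3 and 1 in 41585 and 0 in both WT libraries. Pparg had 2 and 3 in KO, 2 and 0 in 41585 and 0 in both WT libraries. Cidec had 1 and 2 in KO, 6 and 1 in 41585 and 0 and 2 in WT. The 8 hepatocyte markers summed to 2.07 to 3.47 CPM in KO and 41585 libraries and to 9.74 to 14.0 CPM in WT, and Hnf4a, which was most of that sum, fell in KO against WT (log2 fold −2.32 ± 0.49, edgeR adjusted p = 0.0112, up to 0.154 with a library left out). The 7 markers of intestinal epithelium summed to 6.56 to 13.9 CPM in KO and 41585 and to 9.13 to 13.1 CPM in WT, with Fabp2 at 0 in every library. The 8 striated muscle markers summed to 161 to 495 CPM in KO and 41585. They summed to 109 and 291 CPM in SOM, 74.2 and 147 CPM in 41589, 39.5 and 357 CPM in 41584 and 28.2 and 42.8 CPM in WT. Ttn carried that sum, with Myod1 at 0 in KO, 41585 and WT. Ttn was not called in KO against WT by edgeR (log2 fold 3.14 ± 1.15, adjusted p = 0.101), but was with DESeq2 (0.0462), with the replicate block (0.01175), with no filter and with only these 2 groups in the fit. Neuron markers summed to 265 to 359 CPM in KO and 41585 and to 304 and 385 CPM in WT. Stmn2 was most of that sum, with 252.5 and 230 CPM in KO and 260 and 343 CPM in WT, and was not called. The 7 fibroblast markers summed to 6.47 to 14.4 CPM in KO and 41585 and to 9.74 and 13.8 CPM in WT. Of the 7 primitive endoderm markers, which summed to 5.85 to 9.27 CPM in KO and 41585 and to 14.2 and 26.3 CPM in WT, 1 was called lower in KO against WT and 4 in 41585 against 41584. The call of Gata6 in KO was lost without either KO library or replicate 1 of WT. In 41585 against 41584 the call of Sox7 was lost without any one library and that of Pdgfra without either 41585 library. Those of Gata6 and Dab2 were lost without replicate 2 and replicate 1 of 41585, respectively. Gata4 stood on the other side of 0 in KO against WT and was not called (0.47 ± 0.73, edgeR adjusted p = 0.7). Of 7 trophectoderm markers 5 were tested in KO against WT, and Krt8 (4.41 ± 0.82, 0.00633), Krt18 (2.94 ± 0.72, 0.0203) and Elf5 (3.95 ± 0.99, 0.0231) were called higher. Eomes (−1.26 ± 0.41, 0.0587) and Tfap2c (−0.43 ± 0.32, 0.395) were not called and stood on the other side of 0. Cdx2 and Gata3 were too low to test. Cdx2 had at most 0.244 CPM in KO and 0 in WT, and Gata3 had 1.10 and 0.924 CPM in KO and 0 and 0.109 CPM in WT. The 7 summed to 247 CPM in both KO libraries, to 70.1 and 317 CPM in 41585 and to 78.9 and 94.8 CPM in WT, so that 1 of the 41585 libraries lay below WT. The part of these markers in the levels of the 8 genes was not tested. The calls of Krt8 (without replicate 1 of WT, 0.0848), Krt18 (without any one library, up to 0.167) and Elf5 (without replicate 1 of KO or replicate 1 or 2 of WT, up to 0.212) were lost.

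The genes whose log2 CPM over the 12 libraries was most like the mean profile of the 8 were Sri (Pearson r = 0.996), Pla2g4e (0.984), Serpinb9b (0.983), Prss35 (0.982) and 1810037I17Rik (0.982). The libraries fall into separate groups, and these values describe likeness only. With Spearman correlation 1 of these 5, Sri, was among the first 5. Without Spink1 in the profile, 1 of the 5, Prss35 (0.992), was kept. Spink1 alone was most like D16Ertd472e (0.973) and Lrrn2 alone most like Fem1a (0.981), and neither of their first 5 shared a gene with the others. Pla2g4e, a cytosolic phospholipase A2, had 47.8 and 41.6 CPM in KO and 50.9 and 42.2 CPM in 41585, against 5.49 and 7.52 in SOM, 1.93 and 4.48 in 41589, 2.56 and 7.77 in 41584 and 1.24 and 1.97 in WT.

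The 3′ UTRs of the 8 genes were searched for sites of 3 seed families known from ES cells and differentiated cells. One mature miRNA of each is shown with its seed, bases 2 to 8, in capitals.
miR-294-3p: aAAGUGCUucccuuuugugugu
miR-17-5p: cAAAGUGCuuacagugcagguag
let-7a-5p: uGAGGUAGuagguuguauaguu
miR-291a-3p, miR-295-3p, miR-302b-3p and miR-302d-3p share the first seed, miR-20a-5p the next and let-7b-5p and let-7g-5p the last. The site AGCACTT matches the first seed and is in 17.6% of the longest annotated 3′ UTRs of 12999 tested genes. For the miR-17 seed the site is GCACTTT, found in 14.5% of these UTRs. For let-7 it is CTACCTC, found in 10.7%, and 30.6% hold at least 1 of the 3. In the longest 3′ UTR of each of the 8 genes none of the 3 was found. These UTRs measured 3064 bases in Sypl2, 2733 in Sh3rf2, 2475 in Gcnt3, 845 in C1qtnf9, 682 in Aox3, 614 in Lrrn2, 187 in Ren1 and 78 in Spink1, against a median of 1179.

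Over all 10 annotated protein-coding transcripts of the 8 genes, 1 held a site. The full-length transcript of Aox3, whose 3′ UTR of 475 bases is shorter than the one that ends inside the gene, held AGCACTT at base 355, at chromosome 1, 58200578 to 58200584, plus strand, shown with its flanks and the site in capitals.
Aox3 site: ctgtaatccgAGCACTTgagaggcaga
The 6-base GCACTT, which is part of the first pair of sites, occurred 2 times in the longest 3′ UTR of Sh3rf2, once in the same Aox3 transcript and in no other of the 8 genes, and 33.4% of the UTRs of tested genes hold it. A match in letters is a description and does not show that a miRNA binds there, and no match says only that these letters are absent from the annotated UTR.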

How the data were processed

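Poly(A) RNA of 12 libraries from mouse ES cells, 2 in each of 6 groups, was used. The authors deposited raw counts per Ensembl gene. Reads were aligned with STAR 2.4.2a to mm10 (GRCm38), per the submitters' processing notes; per the labels' protocols, libraries were TruSeq and reverse-stranded. The counting program, its annotation and its use of strand were not given in the sources used here. GENCODE M21 (GRCm38) gave symbols to 47224 of 47643 genes, positions and 3′ UTRs; coordinates are 1-based.

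The main test was edgeR's robust quasi-likelihood fit (version 4.0.16; TMM scaling; filterByExpr with a minimum count of 10; 1 mean per group over all 12 libraries; 6 residual degrees of freedom; biological coefficient of variation 0.278), with Benjamini-Hochberg adjustment over 14629 genes per comparison. DESeq2 1.42.0, RLE scaling, no filter, fits of 2 groups, a replicate term and leaving out each library were alternatives. Folds are log2 ± standard error, CPM are means ± SD. The standard error was derived as the absolute log2 fold over the square root of the test's F statistic. For genes near 0 it can be smaller than counting error. Ren1 in KO against WT had 6.79 ± 0.78 over 1 read in WT, where the counting interval of the ratio ran from 24.2 to 5453. Ratios of summed scaled counts have an exact 95% interval, which covers counting error only. Against 0 reads the ratio is a bound at 3 reads over the group, which leaves out counting error in the other group. Log2 CPM for likeness used a prior count of 2.

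The 8 genes, the lists and the comparisons were chosen with earlier results of these data known. Genes named besides the 8 are Dicer1, nearest protein-coding neighbours, up to 3 tested genes per list by adjusted p in KO against WT and the 5 genes most like the 8. Marc2, Ace, Eomes, Tfap2c, Cdx2, Gata3, Gata4, Pdgfra, Pparg and Cidec fall outside that rule. So do the defining genes named as at or near 0 (such as Agt, Adipoq, Lep, Plin1, Fabp2, Myod1, Prss1, Prss2 and Ctrb1). All of these were chosen after their values were seen. Profiles without Spink1 and of Spink1 and Lrrn2 alone, the 6-base site and the alternatives for genes besides the 8 were added after seeing the data.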

Additional observations from a re-analysis of the deposited data

How the results depend on the processing

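Scaling by RLE changed no count of calls by over 1.5 times. With no filter on low counts the genes called over the whole table became 2950 in KO against WT, 3073 in 41585 against 41584, 119 in 41585 against KO, 3 in 41589 against 41584 and 14 in SOM against 41584. With only the 2 groups compared in the fit they became 4892, 403 and 545 in the first 3 of these, and 1 of the 8 genes, Lrrn2, was then called in 41585 against KO, while 5 were called in 41585 against 41584. DESeq2 called 1 gene in 41585 against KO and 2 in SOM against 41584. In 41585 against 41584, Lrrn2 was called with DESeq2, with no filter and with the replicate block, so that 8 of the 8 genes were called.

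Leaving out 1 library gave 237 to 606 genes called in KO against WT, 419 to 2711 in 41585 against WT, 348 to 1820 in 41585 against 41584, 0 to 4 in 41585 against KO, 0 to 1 in 41589 against 41584 and 0 to 1 in SOM against 41584. Of the 8 genes, 6 to 7 were called in each of the first 3 of these contrasts. The lone library of a group was then assumed to vary like the other groups.

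The labels do not say that replicate numbers pair libraries. Replicate differences correlated at r over 0.1 in 5 of 15 pairs of groups (range −0.0832 to 0.508), so the numbers were not taken as pairs. The replicate block gave 2346 calls in KO against WT, 4650 in 41585 against WT and 2170 in 41585 against 41584. Over all alternatives in the contrasts with KO, 41585 or WT, 29 fitted folds of the 8 genes moved by more than their standard error. Each of the 29 did so with a library left out. Folds in 41589 against 41584 and in SOM against 41584 are not in that number, and they also moved widely. With a library left out, C1qtnf9 ran from 0.54 to 5.54 and Lrrn2 from −2.72 to 2.26 in 41589 against 41584. No called fold of the 8 genes turned its sign, but several uncalled ones did. The fold of Spink1 in KO against WT became 0.74 without replicate 2 of WT. With a library left out, Spink1 ran from −2.77 to 3.28 in 41589 against 41584. In 41585 against KO, C1qtnf9 ran from −0.43 to 0.18 and Sypl2 from −0.56 to 0.68. For the other named genes 810 folds kept their side of the threshold, 127 lost a call and 77 gained one. Depth limits the values near 0, where 1 read decides.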
